A study of Mus musculus with 4 samples.

Results

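The matricellular genes described here are 10 genes for secreted proteins of the extracellular matrix, Postn, Tnc, Tnn, Thbs1, Thbs2, Thbs3, Thbs4, Comp, Sparc and Sparcl1, picked by name as a family and found in all 4 libraries. They are 10 of the 26600 genes that every library lists. Matricellular proteins sit in the matrix but do not form its fibres in the way that collagens do. They bind collagens, proteoglycans, growth factors and cell surface receptors such as integrins, and change how a cell holds on to the matrix, moves and responds to signals. In bone and its marrow they are known from periosteum, tendon and cartilage, and from sites of growth, loading and repair.

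The data are transcriptomes of single cells from endosteal bone marrow, which are freed by proteases from metaphyseal bone once periosteum, epiphyses and central marrow have been taken away. All mice were male Col2-Cre Rosa26 lsl-tdTomato (Col2:Td) mice on the B6SJL/F1 strain, in which Cre driven from the Col2a1 promoter switches on the red reporter Td in chondrocytes, osteoblasts, osteocytes and marrow stromal cells. The groups are 4 ages, with 2 mice pooled at 1 month and 3 mice pooled at each of 1.5, 3 and 16 months, and no group lacked the reporter or had a treatment. Cells were sorted as Td+ or as the 1% with the most Td signal, so other cells of the marrow are present only as far as they passed that gate. Each age is 1 library, and a difference between ages cannot be told apart from a difference between libraries, so no p-value or standard error is given. Intervals are 95% Poisson intervals of the UMI count (UMIs are counted molecules) or exact binomial intervals of a share of cells, and cover counting error only.

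The libraries held 4516 to 9229 barcodes with a median of 5998.5 to 10238 UMIs, and 4180 to 8308 cells per library were kept. Barcodes were shared by 30 to 61 cells between any pair of the 1, 1.5 and 3 month libraries and by 1 or 2 between these and the 16 month library. Cells were grouped without the 10 members and without the marker genes used for naming. A class is called X-like when at least 3 of its fixed markers were raised. In each library every fixed marker of the mesenchymal and endothelial-like classes, and at least 7 of the 8 of mural-like cells, stood at least 2-fold above its median over the other classes. That median was taken over classes of at least 50 cells, blood classes among them, and for a chondrocyte class without the other chondrocyte class. The same markers named the classes, so this describes the classes and is no test of their names. The classes used most are early (EMP-like) and late (LMP-like) mesenchymal progenitors, tendon-like cells, osteoblasts (OB-like), osteocytes (Ocy-like), the adipocyte lineage of the marrow (AD-like), chondrocytes (CH-like) and hypertrophic CH-like cells. Levels are CPM, the counts of a gene per 1000000 UMIs of a class in a library. Values are set beside erythroid-like cells of the same library, a class that should lack these matrix genes and so shows RNA from other cells. Its level is not the amount brought into every class, since at 16 months the 7 AD markers summed to 4470 CPM in erythroid-like cells and to 566.9 CPM in OB-like cells. Neutrophil-like cells did not serve for this at 1.5 months, where the 48 such cells held 15077 CPM of Sparc and 1930 CPM of Comp.

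The promoters of Postn, Tnn and Thbs2 are shown because these 3 genes were highest in the same class, LMP-like cells, in every library. They are RefSeq windows of 250 bases before to 50 after a gene start on GRCm38.p6, read 5′ to 3′ on the gene's strand, and 7 of the 10 members have such a window in the table used (not Thbs1, Comp or Sparcl1). The Postn window is chr3:54360857-54361156 on the + strand, the Tnn window chr1:160153526-160153825 on the - strand and the Thbs2 window chr17:14694213-14694512 on the - strand. Capitals mark matches on either strand to short motifs. Searched were the TATA box written TATAAA, the CCAAT box, the TEAD motif with the letters GGAATG, the SMAD motif, spelled CAGACA in this search, the RUNX motif given as TGTGGT, the GC box, for which GGGCGG was used, and the AP-1 motif, whose letters were TGANTCA with any base at N.
Postn: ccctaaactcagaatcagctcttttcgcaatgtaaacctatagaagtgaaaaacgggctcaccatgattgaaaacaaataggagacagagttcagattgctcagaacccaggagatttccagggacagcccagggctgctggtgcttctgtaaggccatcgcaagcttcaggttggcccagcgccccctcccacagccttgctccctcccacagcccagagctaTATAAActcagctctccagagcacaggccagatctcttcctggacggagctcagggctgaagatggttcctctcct
Tnn: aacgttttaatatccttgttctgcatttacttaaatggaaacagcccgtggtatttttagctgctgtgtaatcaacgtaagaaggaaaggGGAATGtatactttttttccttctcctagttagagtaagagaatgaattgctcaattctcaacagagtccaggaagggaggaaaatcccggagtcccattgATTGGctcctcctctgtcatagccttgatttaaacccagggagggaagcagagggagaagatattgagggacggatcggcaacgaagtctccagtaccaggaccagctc
Thbs2: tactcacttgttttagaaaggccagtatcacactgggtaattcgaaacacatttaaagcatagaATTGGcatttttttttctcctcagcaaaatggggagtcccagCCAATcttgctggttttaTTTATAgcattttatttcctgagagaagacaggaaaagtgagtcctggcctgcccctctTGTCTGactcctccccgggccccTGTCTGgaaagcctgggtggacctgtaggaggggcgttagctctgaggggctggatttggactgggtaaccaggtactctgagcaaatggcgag
The Postn window holds a TATA box starting at position -26 from the gene start. In Tnn, a TEAD motif lies at -160 and a CCAAT box on the reverse strand at -59. The Thbs2 window holds CCAAT boxes at -186 and -144, a reverse TATA box at -126 and reverse SMAD motifs at -67 and -44. No motif was shared by these 3 windows, and none of them held the RUNX, AP-1 or GC box letters. The table has another Postn window, chr3:54359017-54359316, not shown because the GENCODE gene start lies in the first. It holds a reverse CCAAT box 24 bases after its start, so with that window all 3 genes have a CCAAT box. Over all 32851 windows, a TATA box was found in 13.6%, a CCAAT box in 37.4%, a TEAD motif in 14.7% and a SMAD motif in 21.0%. A match is a description of letters, not of a bound site.

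**Figure D1:**
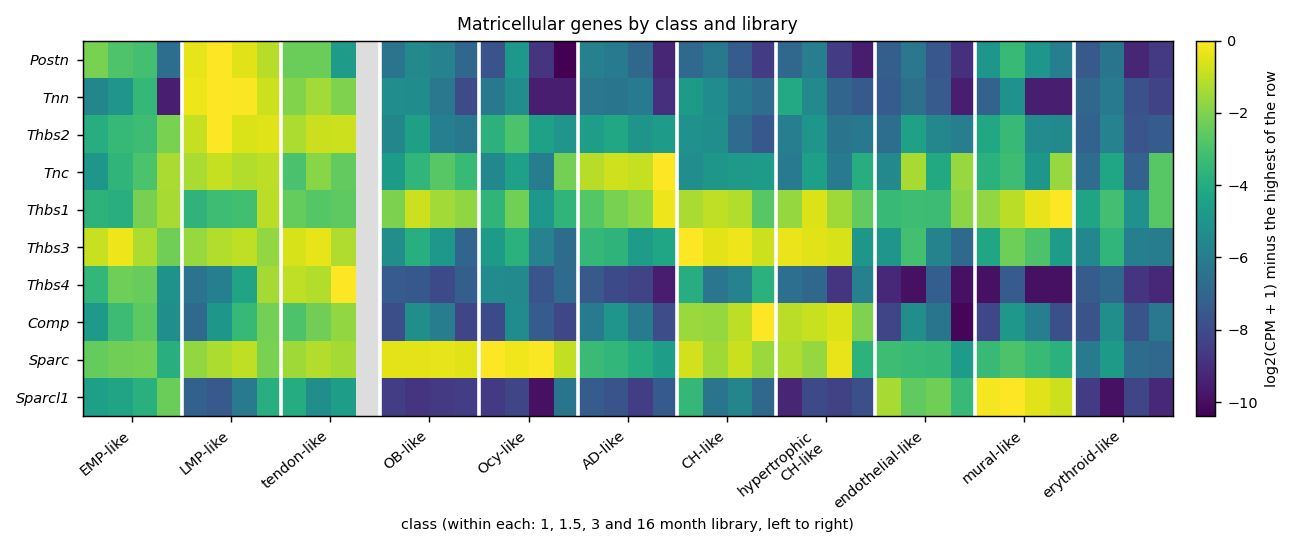
Heat map of the 10 genes (rows) over 11 classes, each with its 1, 1.5, 3 and 16 month library from left to right. Colour is log2(CPM + 1) minus the highest value of that row, so shades compare classes within a gene and not genes with each other, and grey marks the missing tendon-like class at 16 months. Postn, Tnn and Thbs2 are brightest in LMP-like cells, Comp in both chondrocyte classes, Tnc in AD-like cells and Sparcl1 in mural-like cells.

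Unnamed clusters were left out of the ranking of classes. A gene was said to have a leading class in a library when its highest named class of at least 50 cells had at least 10 CPM and at least 2 times the CPM of the next class. At 1 month 5 of the 10 members had a leading class, beside 17.6% of the 10844 genes tested. At 1.5 months it was 4 members beside 15.9% of genes, at 3 months 4 members beside 20.8%, and at 16 months 8 members beside 19.7%. The count at 1.5 months was 2 when 3-fold was asked. Postn and Tnn were led by LMP-like cells in all 4 libraries, and Thbs4 by tendon-like cells in the 3 libraries that have them. Comp, Tnc, Thbs2 and Sparc had a leading class at 16 months alone, with a fold to the next class of 1.04 to 1.81 in the other libraries. Thbs3 had none in any library. The classes ranked differ between libraries. For Sparc at 16 months, Ocy-like cells stood above CH-like cells, the next class ranked, but with 47 cells they were left out. For Thbs2, tendon-like cells were the next class in each younger library, and no such class was found at 16 months. Among the 6 classes with at least 50 cells in every library (EMP-like, LMP-like, OB-like, AD-like, CH-like and hypertrophic CH-like), 4 members kept the same highest class at all ages, namely Postn, Tnn and Thbs2 in LMP-like and Tnc in AD-like cells, and it was 7 members when each library was clustered alone or at a resolution of 0.5.

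Postn (periostin; chr3:54361109-54391037, + strand, GRCm38) encodes a protein that binds collagen and integrins and is best known from the periosteum and periodontal ligament. In LMP-like cells it stood at 4264 CPM (4187 to 4342) at 1 month, 5606 CPM (5539 to 5674) at 1.5 months, 4055 CPM (3962 to 4150) at 3 months and 2551 CPM (2488 to 2615) at 16 months. These are the highest values of any class in each library, 3.25 to 6.24 times the next named class at 1, 1.5 and 3 months and 34.2 times at 16 months. Unnamed clusters do not enter these folds, and the 16 month cluster led by Spp1, Dmp1 and Mmp13 had 696.5 CPM (673 to 721) of Postn in its 378 cells, above every named class but LMP-like. EMP-like cells had 1312, 774.1 and 650.0 CPM in the first 3 libraries and 55.4 CPM (42.9 to 70.3) at 16 months. Tendon-like cells had 1112 CPM at both 1 and 1.5 months and 214.3 CPM at 3 months. AD-like cells had 96.5, 77.0, 45.8 and 8.01 CPM, beside 30.2, 68.0, 8.09 and 13.1 CPM in erythroid-like cells, so at 16 months they were below erythroid-like cells, and at 1.5 months their interval (70.8 to 83.6) lay within that of erythroid-like cells (45.2 to 98.3). After each cell was thinned to 3000 UMIs, a Postn UMI was found in 94.1% (90.4 to 96.7) of LMP-like cells at 1 month, 91.8% at 1.5 months, 70.9% at 3 months and 61.2% (54.7 to 67.3) at 16 months, against 97.6%, 97.7%, 73.2% and 67.8% before thinning. The share in thinned erythroid-like cells was 1.51% to 8.50%. No LMP-like cell was left out by thinning at 1, 1.5 and 16 months, and 20 of 298 were at 3 months.

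Tnn (tenascin N, also called tenascin W; chr1:160085029-160153580, - strand) encodes a tenascin known from periosteum and from stem cell niches of bone. It had 598.4 CPM in LMP-like cells at 1 month, 726.9 CPM at 1.5 months, 693.5 CPM at 3 months and 416.1 CPM (391 to 442) at 16 months. Tendon-like cells came next with 187.1, 267.6 and 178.5 CPM. At 16 months, where no tendon-like class was found, the next class was CH-like with 6.03 CPM, so that LMP-like cells were 69.0 times higher. No Tnn UMI was seen in the 143 EMP-like cells at 16 months, which allows up to 3.05 CPM, while EMP-like cells had 14.0, 22.2 and 64.6 CPM in the younger libraries. In thinned cells, 65.7%, 68.5%, 64.7% and 35.5% of LMP-like cells held a Tnn UMI in order of age (87.4%, 85.3%, 68.5% and 47.9% unthinned), against 0% to 2.56% of erythroid-like cells. In the 3 month library 0 of 95 thinned erythroid-like cells held a UMI, which allows a share of up to 3.16%.

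Thbs2 (thrombospondin 2; chr17:14665500-14694235, - strand) encodes a trimeric thrombospondin known for its effect on collagen fibres and for holding back vessel growth. LMP-like cells had 597.3, 1123, 752.8 and 783.0 CPM in order of age. Unlike Tnn, it was close behind in tendon-like cells, with 465.3, 621.5 and 650.8 CPM, a fold of 1.28, 1.81 and 1.16 between these classes. EMP-like cells had 73.0 CPM (59.0 to 89.3) at 1 month, 104.1 CPM at 1.5 months, 120.2 CPM at 3 months and 259.5 CPM (232 to 290) at 16 months. Thus Thbs2 was at its highest in EMP-like cells in the same library in which Postn and Tnn were at their lowest. OB-like cells had 14.5 to 49.6 CPM and erythroid-like cells 4.62 to 19.4 CPM. Postn and Thbs2 were found together in 69.3%, 78.2%, 54.7% and 48.3% of thinned LMP-like cells, and Postn and Tnn in 65.0%, 67.4%, 58.3% and 30.2%. In AD-like cells no more than 3.60% and 0.585% of cells held these pairs in any library.

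**Figure D2:**
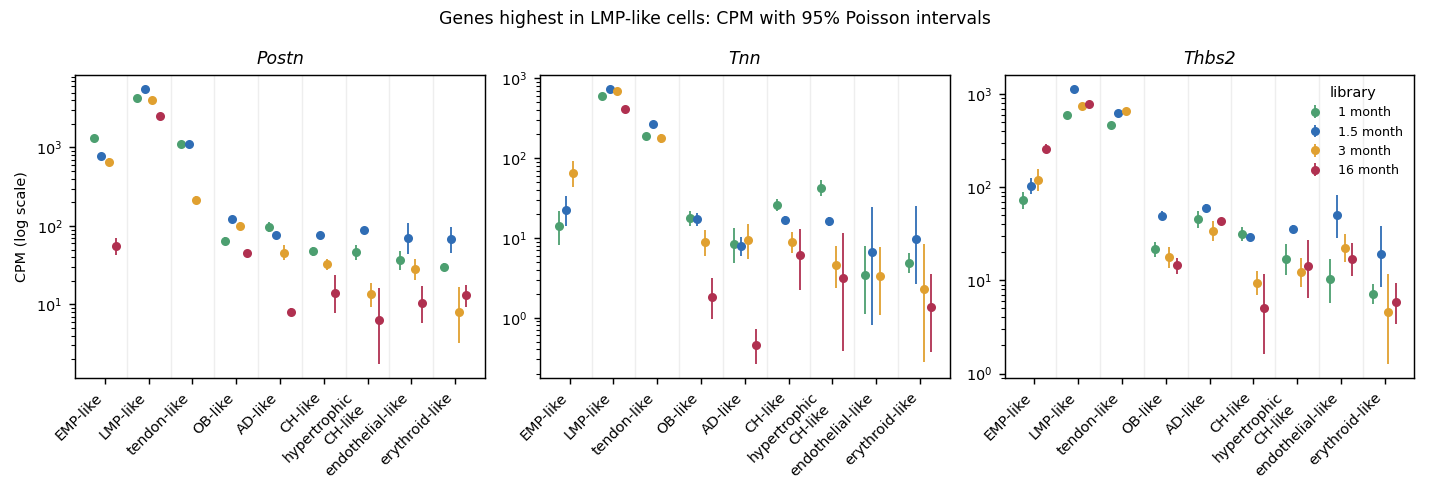
CPM of Postn, Tnn and Thbs2 on a log scale in 9 classes, with 1 point per library and 95% Poisson intervals. The LMP-like points are the highest of each library for all 3 genes. Values of 0, such as Tnn in EMP-like cells at 16 months, cannot be drawn on the log scale and are left out.

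Tnc (tenascin C; chr4:63959785-64047015, - strand) encodes a large tenascin that appears in developing, loaded and injured tissue and loosens cell attachment. AD-like cells had 748.6 CPM (711 to 787) at 1 month, 948.2 CPM (926 to 971) at 1.5 months, 842.6 CPM (801 to 886) at 3 months and 1604 CPM (1592 to 1617) at 16 months. Among the named classes LMP-like cells followed in every library with 640.9, 857.0, 698.5 and 775.7 CPM. Tnc was therefore nearly even between these 2 classes up to 3 months, with folds of 1.11 to 1.21, and 2.07 times higher in AD-like cells at 16 months. Still higher values lay in clusters that no set of markers named. The cluster led by Kcnk2, Limch1 and Wif1 had 1169 CPM at 1 month and 1961 CPM at 1.5 months, the 3 month cluster led by Spp1, Limch1 and Angpt4 had 2015 CPM and the 16 month cluster led by Spp1, Dmp1 and Mmp13 had 2190 CPM. These clusters held 475, 229 and 378 cells. Erythroid-like cells held 14.8, 85.0, 10.4 and 248.8 CPM (231 to 268) in order of age. At 16 months OB-like cells had 153.3 CPM, hypertrophic CH-like cells 105.0 CPM and CH-like cells 63.3 CPM, all under the erythroid-like level of that library, and how much of these values is RNA from other cells was not tested. At 3 months OB-like cells had 249.0 CPM, far above the erythroid-like level.

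Thbs1 (thrombospondin 1; chr2:118111876-118127133, + strand) encodes a trimeric thrombospondin that binds CD36 and CD47 and activates latent TGF-beta. In CH-like cells it had 193.5, 240.2, 214.1 and 74.4 CPM in order of age, in hypertrophic CH-like cells 155.3, 335.9, 172.3 and 84.3 CPM, and in OB-like cells 118.2, 279.9, 176.8 and 147.0 CPM. AD-like cells went from 72.2 CPM (61.0 to 85.0) at 1 month through 113.0 and 143.5 CPM to 400.4 CPM (394 to 407) at 16 months. Mural-like cells, of which there were few, had 149.4, 231.2, 377.4 and 485.6 CPM. Blood cells carried it too. Monocyte-like cells had 488.2 CPM at 1 month, and neutrophil-like cells had 188.7, 174.4 and 171.3 CPM and then 1265 CPM at 16 months, above every mesenchymal, endothelial-like or mural-like class of that library. Erythroid-like cells had 12.7 to 74.9 CPM. The share of thinned AD-like cells with a Thbs1 UMI was 15.4% (11.2 to 20.5), 24.0%, 27.7% and 47.0% (45.4 to 48.7) in order of age, with 32.8%, 37.3%, 33.2% and 71.0% unthinned.

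Comp, Thbs3 and Thbs4 encode the pentameric thrombospondins, which bind collagens of cartilage and tendon. Comp (cartilage oligomeric matrix protein; chr8:70373558-70382066, + strand) had 3539, 3362, 5081 and 10362 CPM (10163 to 10564) in CH-like cells in order of age. Hypertrophic CH-like cells had 4931, 5689, 7014 and 2570 CPM (2446 to 2698), so the order of these 2 classes at 16 months was the reverse of that in the other libraries. Only 55 CH-like and 62 hypertrophic CH-like cells were found at 16 months. Tendon-like cells had 1367, 2168 and 3199 CPM. Erythroid-like cells had 272.1 CPM (224 to 327) of Comp at 1.5 months and 47.8, 49.7 and 136.4 CPM in the other libraries. OB-like cells had 42.8, 276.8, 161.2 and 33.4 CPM in order of age, with an interval wholly above that of erythroid-like cells at 3 months alone (148 to 175 against 36.0 to 67.0). AD-like cells had 148.9, 331.0, 145.1 and 41.1 CPM. A Comp UMI was found in 97.3% to 100% of thinned CH-like cells, and in 2.51% to 48.7% of thinned erythroid-like cells.

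Thbs3 (chr3:89215180-89226837, + strand) overlaps Mtx1 on the other strand, and whether reads were counted by strand is not given in the sources used here. The same holds for Tnc, which overlaps 8030451A03Rik, Thbs1, which overlaps Gm29233, and Sparcl1, which overlaps Gm26703, each on the other strand. CH-like cells had 268.2, 201.9, 224.7 and 154.8 CPM, EMP-like cells 144.4, 223.3, 111.3 and 56.2 CPM and tendon-like cells 173.0, 203.2 and 113.8 CPM. Its highest and next class differed by a fold of 1.10 to 1.85. OB-like and AD-like cells had at most 23.3 CPM. Comp and Thbs3 had the most alike profiles of any pair of members over the class and library values (r = 0.88 over 50 values), followed by Postn and Tnn (r = 0.87), Postn and Thbs2 (r = 0.86) and Tnn and Thbs2 (r = 0.81). These values come from 4 libraries and share their depth and RNA from other cells, so the correlations are descriptions only.

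Thbs4 (chr13:92751590-92794818, - strand) was highest in tendon-like cells where that class was found. Tendon-like cells had 495.0 CPM (473 to 518) at 1 month, 430.1 CPM (410 to 451) at 1.5 months and 974.3 CPM (921 to 1030) at 3 months, 5.80, 2.15 and 5.34 times the EMP-like cells that came next. Within the tendon-like cells of 1 and 1.5 months it was uneven, with cells counted over both libraries and CPM given for each. The 37 cells led by Kera, Thbs4 and Tnmd, markers of mature tendon cells among them, had 4026 and 4414 CPM, the 98 cells led by Npy, Cilp2 and Tnmd had 1160 and 771.0 CPM, and the 738 cells led by Mfap4, Sfrp2 and Nov had 215.1 and 242.4 CPM. These 738 cells had all 4 LMP markers raised, beside 3 of the 7 tendon markers. The 232 tendon-like cells of 3 months had 3 LMP and 6 tendon markers raised, so the 2 classes are not sharply apart. LMP-like cells had 10.3, 15.2 and 47.5 CPM in the younger libraries and 366.5 CPM (343 to 391) at 16 months. OB-like and AD-like cells had at most 5.49 CPM, and erythroid-like cells 0.687 to 7.29 CPM.

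Sparc (osteonectin; chr11:55394500-55423183, - strand) encodes a collagen chaperone and calcium-binding protein that is abundant in bone matrix. OB-like cells had 46474, 46847, 47845 and 45073 CPM in order of age. Ocy-like cells had 63131, 53506, 59885 and 32590 CPM from 33 to 95 cells a library. CH-like cells had 38366, 22610, 35609 and 21582 CPM, and hypertrophic CH-like cells 26638, 20356, 49624 and 4919 CPM. AD-like cells had 6442, 5598, 4106 and 2691 CPM, the lowest among the mesenchymal classes of each library (AD-like, both chondrocyte classes, EMP-like, LMP-like, tendon-like, Ocy-like and OB-like). Erythroid-like cells had 525.4 to 2376 CPM of Sparc, and 42.7% to 100% of thinned erythroid-like cells held a UMI, so shares of cells are not read for this gene.

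Sparcl1 (hevin; chr5:104079111-104113733, - strand) encodes a SPARC relative that works against cell adhesion and is known from vessel walls and brain. Among the ranked classes of at least 50 cells, endothelial-like or mural-like cells led for Sparcl1 in the younger libraries. EMP-like cells were highest among these at 16 months. Mural-like cells had 883.2, 976.1, 702.1 and 559.2 CPM, from 24, 65, 30 and 21 cells, and endothelial-like cells 375.1, 165.4, 205.4 and 96.1 CPM. EMP-like cells had 41.9 CPM (31.5 to 54.7), 47.5 CPM, 69.0 CPM and 190.9 CPM (167 to 217) in order of age. In CH-like cells the value was 87.5 CPM (79.1 to 96.5) at 1 month and 7.04 to 18.4 CPM in the other libraries. The CH-like subcluster led by Cytl1 and Mgp had 258.0 CPM at 1 month and 57.1 CPM at 1.5 months. The cluster led by Prg4, the lubricin gene of joint surfaces, had 573.9 and 429.8 CPM from 21 and 10 cells. OB-like and AD-like cells had at most 4.95 CPM, and erythroid-like cells 0 to 2.31 CPM.

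For the comparison of ages, a member was called in a class when its 16 month CPM lay outside the range of the other 3 libraries and at least 2-fold from their mean, with at least 10 CPM in 1 library. Ratios are log2 of (CPM + 1) at 16 months over the mean of the other 3, while the 2-fold rule is applied to CPM itself, so a called gene of low level can have a ratio just under 1 in size. In EMP-like cells 10 of the 10 members were called, 4 higher and 6 lower, where 33.1% of the 9371 genes tested were called. In LMP-like cells 4 members were called, all higher, beside 32.2% of genes, so the share of members was near that of all genes. In CH-like cells 7 of 10 were called beside 37.2% of genes, and in hypertrophic CH-like cells 8 of the 9 members that reached 10 CPM beside 42.5%. In OB-like cells 5 of 8 were called, all lower, beside 14.9% of genes, and in AD-like cells 3 of 7 beside 17.3%. Leaving out the 1.5 month library reduced the OB-like count to 2, with Postn, Thbs2 and Thbs3 lost, and also removed the calls of Thbs1 in hypertrophic CH-like and Thbs4 in CH-like cells. Leaving out the 3 month library removed the calls of Thbs4 in both chondrocyte classes. Of the 37 called pairs of member and class, 7 were called under every alternative that gave them a value: Postn, Tnc, Thbs4 and Sparcl1 in EMP-like, Sparcl1 in LMP-like, and Thbs3 and Sparc in hypertrophic CH-like cells. The median ratio over the members was -1.53 in EMP-like cells and 0.17 over all genes, 0.0046 against 0.097 in LMP-like cells and -0.98 against -0.073 in CH-like cells. In the other classes members below 10 CPM are missing, and the medians were -1.38 against 0.28 in hypertrophic CH-like, -1.03 against -0.070 in OB-like and -0.45 against 0.049 in AD-like cells.

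**Figure D3:**
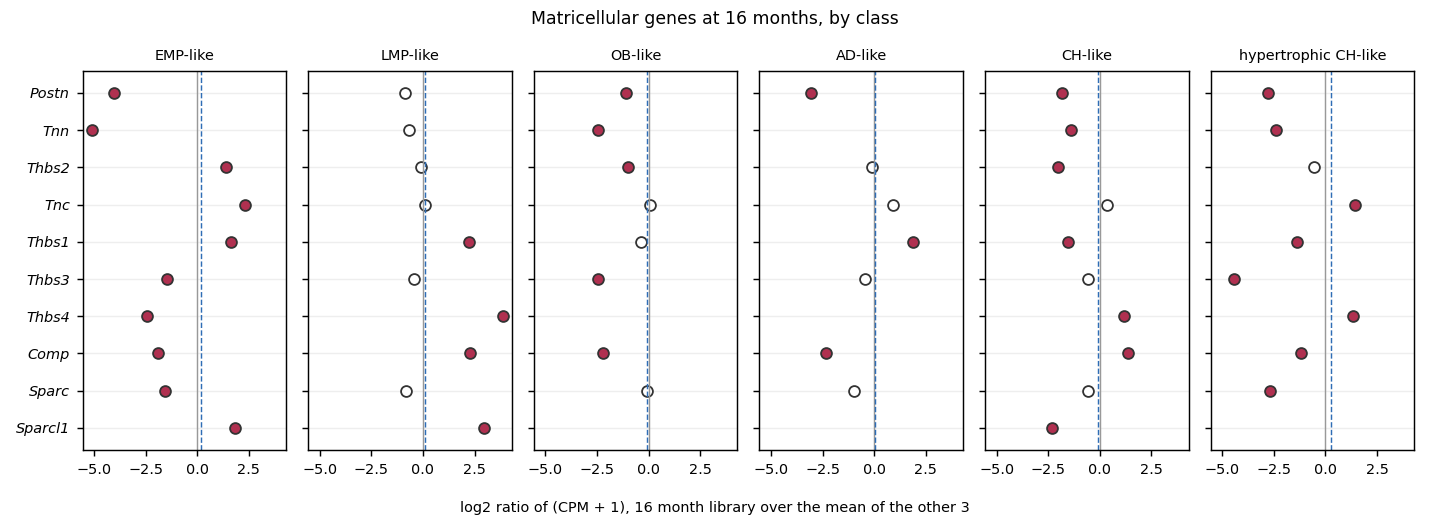
Log2 ratio of (CPM + 1) at 16 months over the mean of the 1, 1.5 and 3 month libraries, for the members that reached 10 CPM in 6 classes. Filled points are past the 2-fold rule, the grey line is 0 and the dashed blue line the median of all genes tested in that class. All 10 points are filled in EMP-like cells, and the filled points of LMP-like cells all lie to the right of 0.

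In EMP-like cells 6 members were lower and 4 higher at 16 months. Postn had a ratio of -4.02, Tnn -5.11 (with 0 UMIs at 16 months, a value that rests on the added 1), Thbs4 -2.43, Comp -1.90, Sparc -1.57 and Thbs3 -1.49. Thbs4 had 85.4, 200.1 and 182.5 CPM in the younger libraries and 28.1 CPM (19.5 to 39.3) at 16 months. Comp had 367.9, 1083 and 1696 CPM and then 280.1 CPM (251 to 312). Sparc had 11447, 13432 and 13982 CPM and then 4371 CPM (4254 to 4491). Higher were Tnc with 2.29, Sparcl1 with 1.83, Thbs1 with 1.64 and Thbs2 with 1.38. Tnc went from 52.8, 131.4 and 207.0 CPM to 641.2 CPM (597 to 688), beside 248.8 CPM in erythroid-like cells at that age. The EMP-like cells of the libraries differ in more than age. The summed level of the 8 neutrophil markers was 47769 CPM in the 79 EMP-like cells at 3 months, and 14548, 192.0 and 275.2 CPM at 1, 1.5 and 16 months, and that of the 5 EMP markers was 10798, 14704 and 10924 CPM in the younger libraries and 5926 CPM at 16 months. The 7 AD markers, each with a UMI in every library, summed to 355.5, 1196, 1271 and 12653 CPM in EMP-like cells in order of age, the last above the 4470 CPM of erythroid-like cells, and 3 of them were raised in the EMP-like cluster of 16 months. AD-like cells had the highest Tnc and Thbs1 of the 6 compared classes at that age, and the part of AD RNA in the EMP-like values was not tested. Without the 3 month library all 10 calls remained.

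In LMP-like cells Thbs4 (ratio 3.86), Sparcl1 (2.94), Comp (2.29) and Thbs1 (2.25) were higher at 16 months. Comp had 88.7, 346.1, 973.1 and 2292 CPM (2232 to 2352) in order of age, and Sparcl1 5.87, 4.43, 12.9 and 65.8 CPM (56.1 to 76.8). No tendon-like class was found at 16 months, and 6 of the 7 tendon markers were raised in the LMP-like cluster itself. The summed level of these 7 markers in LMP-like cells was 1062, 1241, 1644 and 2298 CPM in order of age. When LMP-like and tendon-like cells were pooled in every library, Thbs4 had 293.5, 200.7, 434.7 and 366.5 CPM and Comp 835.7, 1161, 1903 and 2292 CPM, and neither was called (ratios 0.24 and 0.82). Thbs1, with 66.6, 61.0, 64.8 and 231.6 CPM, and Sparcl1, with 38.6, 13.5, 23.8 and 65.8 CPM, still were (1.84 and 1.35). The AD markers summed to 438.1, 893.9, 415.0 and 3278 CPM in LMP-like cells, and their part in the Thbs1 value was not tested either. Postn, Tnn, Thbs2, Tnc, Thbs3 and Sparc were not called in LMP-like cells, with ratios between -0.86 and 0.08.

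**Figure D4:**
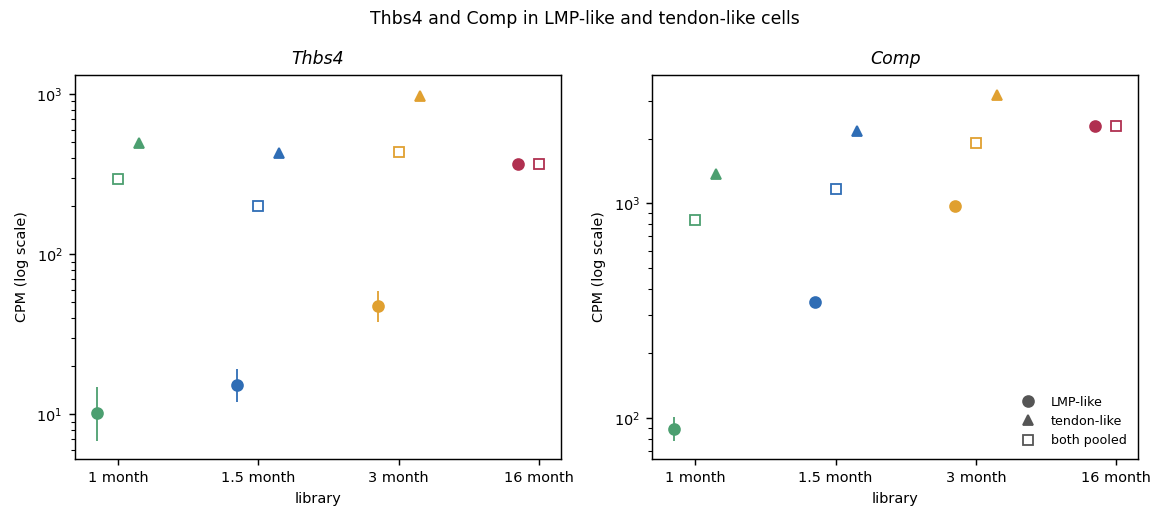
CPM of Thbs4 and Comp on a log scale in LMP-like cells (circles), tendon-like cells (triangles) and both pooled (open squares) by library, with 95% Poisson intervals on the classes. The 16 month circle of Thbs4 lies above the younger circles, while the 16 month square lies between the younger squares.

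In AD-like cells Thbs1 was higher at 16 months (ratio 1.86), and Postn (-3.04) and Comp (-2.31) were lower. Both lay under the erythroid-like level of the 16 month library, 13.1 CPM for Postn and 136.4 CPM for Comp. Tnc had a ratio of 0.92 and lay outside the range of the younger libraries, but under 2-fold. The Thbs1 level of the 7 AD-like subclusters at 16 months was spread from 156.6 to 662.6 CPM. It was 662.6 CPM (646 to 679) in the 873 cells led by Ccl2, Il6 and Ifrd1, 434.9 CPM in the 1047 cells led by Hsph1 and Hspb1 and 447.9 CPM in the 139 cells led by Saa3. It was 180.9 CPM (172 to 190) in the 1064 cells led by Gm12216 and 156.6 CPM (144 to 170) in the 530 cells led by Cxcl13 and Rspo3. The 34 cells led by Cxcl9 and Cxcl10 had 214.3 CPM. The 51 cells led by Kit, Mrap and Fabp4, with the chemokine gene Cxcl5 among their 10 leading genes, had 500.0 CPM. The part of inflammatory or heat-shock genes in these levels was not tested. Tnc was at 1401 to 2250 CPM in 6 of the subclusters and low, at 204.0 CPM, in the Fabp4 cells. At 16 months, 4 AD-like subclusters have a gene of the lists of heat-shock, immediate early or inflammatory genes used here among their 10 leading genes. Without these 4, AD-like cells of that library had 184.9 CPM of Thbs1 (ratio 0.75) and Thbs1 was no longer called. Postn (8.01 CPM, -3.04) and Comp (38.4 CPM, -2.41) still were. Subclusters were removed from the 16 month library alone. The chemokine genes Cxcl13 and Cxcl5 were not on the lists. The Cxcl13 and Fabp4 subclusters, which have them among their 10 leading genes, were kept. An AD-like subcluster of 1157 cells from the younger libraries also had Ccl2 among its 10 leading genes and was kept. Whether Thbs1 would be called with the same removal in every library was not tested.

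**Figure D5:**
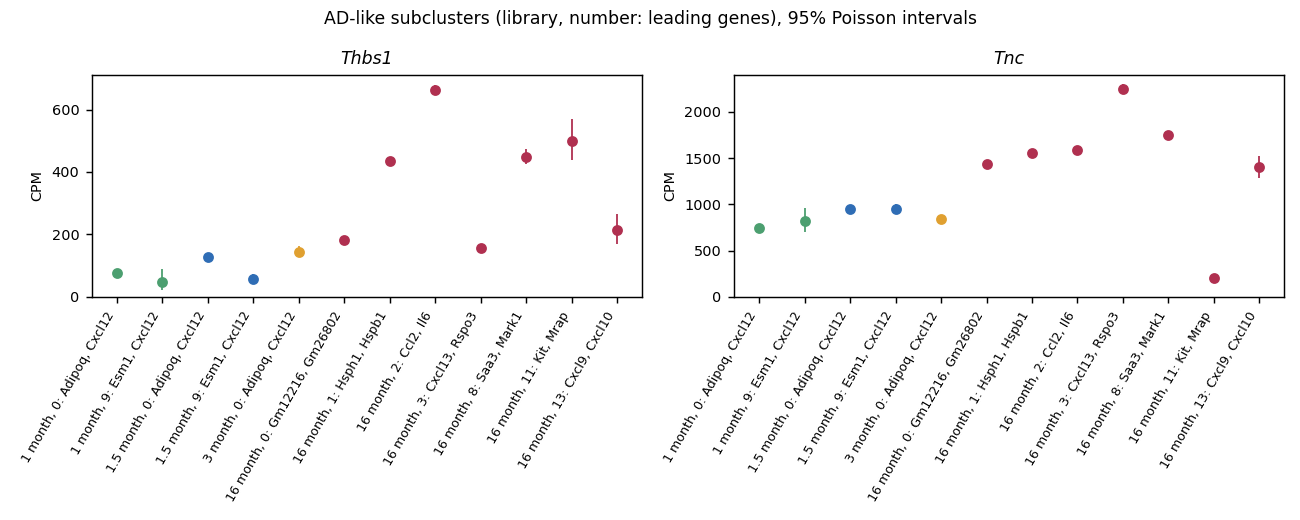
CPM of Thbs1 and Tnc in each AD-like subcluster, named by library, number and leading genes, with 95% Poisson intervals. The 16 month subclusters led by Hsph1, Ccl2, Saa3 and Kit stand above 400 CPM of Thbs1, and the remaining ones lie nearer to the younger libraries.

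The summed level of 14 immediate early and heat-shock genes was 13177, 16656, 17799 and 24841 CPM in AD-like cells in order of age, 5374, 6924, 6300 and 20903 CPM in LMP-like cells, 7539, 12785, 10490 and 19599 CPM in EMP-like cells and 4747, 6635, 6174 and 23576 CPM in hypertrophic CH-like cells. The part of these genes in the ratios was not tested. In CH-like cells, where the sum went from 6402, 7653 and 6810 to 12944 CPM, Thbs1 was lower at 16 months (-1.52), as it was in hypertrophic CH-like cells (-1.38).

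The chondrocyte classes of the libraries differ in their own markers. In CH-like cells Col2a1 had 31938, 42488 and 29448 CPM in the younger libraries and 4717 CPM at 16 months. Col9a1 and Matn3 were lower too, Sox9 and Acan were higher, and Hapln1 lay within the younger range. In hypertrophic CH-like cells Col10a1 went from 4374, 7648 and 5057 to 955.8 CPM, with Panx3 lower and Ihh and Mef2c higher. The part of this in the ratios was not tested. In CH-like cells Comp (1.38) and Thbs4 (1.19) were higher at 16 months and Sparcl1 (-2.31), Thbs2 (-2.01), Postn (-1.82), Thbs1 (-1.52) and Tnn (-1.38) lower. Of the lower ones, Postn, Tnn and Thbs2 had 14.1, 6.03 and 5.03 CPM at 16 months against 13.1, 1.37 and 5.84 CPM in erythroid-like cells of that library. Sparcl1 had 7.04 CPM (2.83 to 14.5) from 7 UMIs at 16 months, an interval that holds the 10.6 CPM of 1.5 months. Thbs4 had 62.7, 11.2 and 16.6 CPM in the younger libraries and 70.4 CPM (54.9 to 88.9) at 16 months, and the 1 month value lies within that interval, and its ratio was -0.21 when the cells with the highest doublet scores were removed. In hypertrophic CH-like cells Thbs3 was at 214.7, 191.5 and 173.1 CPM and then 7.95 CPM (2.58 to 18.6), a ratio of -4.44, and Sparc had a ratio of -2.71. Comp had a ratio of -1.19. Tnc (1.45) and Thbs4 (1.32) passed the rule upward, with Tnc under the erythroid-like level of its library, and the Tnc ratio was -2.88 once the erythroid-like CPM was subtracted. In OB-like cells Tnn (-2.46), Thbs3 (-2.44), Comp (-2.23), Postn (-1.08) and Thbs2 (-0.98) were called lower, all from levels of at most 276.8 CPM, while Sparc, at 45073 to 47845 CPM in this class, had a ratio of -0.062.

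The proteins that matricellular proteins bind were described from 4 lists of genes. Of 15 receptor genes (integrin chains, Cd36, Cd47, Lrp1, Ddr2 and others), 5 of 13 tested were past the 2-fold rule in LMP-like cells at 16 months, 4 of them higher, and 7 of 14 in EMP-like cells, 4 higher. Higher in both were Itga9, a chain of a tenascin receptor, with 1.75 and 2.75 in EMP-like and LMP-like cells, and Lrp1, which takes up thrombospondins, with 1.47 and 1.29. Itgb3, a chain of the integrin that binds Postn, was lower in both with -2.62 and -0.98. In LMP-like cells, though, Itgb3 stood at 2.84 CPM (1.14 to 5.86) at 16 months, an interval that holds the 3.16 CPM of 1.5 months. In AD-like cells 0 of 11 receptor genes were called. Cd36, the thrombospondin 1 receptor, was highest in endothelial-like cells at 3 months (163.7 CPM) and 16 months (316.6 CPM), and Ptprz1, which binds tenascins, was highest in Ocy-like cells at 1.5 months (436.4 CPM).

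Among 9 relatives of the members, Tgfbi, the paralogue of Postn, was lower at 16 months in EMP-like (-1.29), LMP-like (-2.84), OB-like (-2.95), CH-like (-4.41) and hypertrophic CH-like cells (-6.45, with 0 UMIs at 16 months, a value that rests on the added 1). Smoc2, a relative of Sparc, was higher in AD-like (2.55), EMP-like (2.06) and LMP-like cells (1.00). Smoc2 was highest in tendon-like cells in each younger library, with 247.6, 599.1 and 687.4 CPM, and that class was not found at 16 months. Its LMP-like ratio with tendon-like cells pooled was not computed. Tnxb, a tenascin, was led by EMP-like cells in every library with 354.7, 327.4, 200.4 and 90.9 CPM. Over this list 2 of 4 genes tested were called in AD-like, 4 of 6 in LMP-like, 5 of 6 in EMP-like, 2 of 5 in CH-like, 3 of 4 in hypertrophic CH-like and 1 of 3 in OB-like cells. Of 6 matrix partners (Col1a1, Col1a2, Col5a1, Fn1, Bmp1 and Lox), 0 were called in LMP-like cells, and fibronectin (Fn1) was lower in AD-like (-4.53), EMP-like (-2.15) and hypertrophic CH-like cells (-1.66). Bmp1, the protease that trims procollagen and activates Lox, was higher in OB-like cells (1.89). Of 6 TGF-beta genes, whose products bind to or are released by several members, 3 were called in LMP-like cells, with Ltbp1 (1.61) and Tgfbr2 (1.31) higher and Tgfb1 (-1.07) lower, and at most 1 in each of the other classes. These shares are read against the 14.9% to 42.5% of all genes given above. Ltbp1 stood at 109.3, 151.3 and 226.0 CPM in tendon-like cells of the younger libraries, above the 77.2 CPM of LMP-like cells at 16 months. Its LMP-like ratio with tendon-like cells pooled was not computed either.

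The genes with the most similar profile to each member, by Pearson correlation of log2(CPM + 1) over 50 class and library values among 12339 genes, are listed as a description. They were Col3a1, Aspn and Lrrc17 for Postn (r = 0.89 to 0.91), Ostn, Zfp185 and Wnt16 for Tnn (r = 0.90) and Dkk3, Ccdc3 and P4ha3 for Thbs2 (r = 0.90 to 0.94). Aspn, Ostn and Dkk3 are markers by which LMP-like cells were named. For Tnc they were Cdh11, Fgfr2 and Serpine2 (r = 0.93 to 0.96), for Comp Chad, Fbln7 and Gm15867 (r = 0.92 to 0.93), for Thbs3 Angptl2, Fam180a and Col6a3 (r = 0.90 to 0.93) and for Thbs4 Cilp2, Mmp3 and Igfbp6 (r = 0.86 to 0.89). Sparc was most like Slc35a2, Copz2 and Kdelr3 (r = 0.94 to 0.95), genes of transport through the endoplasmic reticulum and Golgi, and Sparcl1 like Cav1, Rhoj and Col18a1 (r = 0.84 to 0.87), genes known from endothelium. Thbs1 had the weakest best match, with Trp53inp2, Fry and Ell (r = 0.62 to 0.71).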

How the data were processed

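Single-cell libraries of sorted Td+ endosteal bone marrow cells from 4 ages, 1 library each, were analysed. The deposited values are raw UMI counts per gene and cell, which the authors made with Cell Ranger 3.0.2 on mm10 with the reporter added and then analysed with Seurat 2. The 16 month library lists 31054 genes and the others 27999, and the 26600 shared genes were compared. Whether the counting used strand is not given in the sources used here. The members and the lists were chosen with earlier results of these data known.

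Barcodes passed when they held 200 to 6000 genes and no more than 5% of their UMIs were mitochondrial. The 1 and 1.5 month libraries were integrated and the 3 and 16 month libraries clustered alone (Seurat 5.3.0 in R 4.3.3, 2000 variable genes less markers and members, 30 components, resolution 0.8), and mesenchymal clusters were clustered again. Clusters were named from fixed markers, with 3 or more raised. No doublet caller was applied in the main analysis, and removing the 8% of cells with the highest Scrublet scores (scanpy 1.11.5) was an alternative. UMIs were summed per class and library and given as CPM. Shares of cells were taken after thinning each cell to 3000 UMIs. Total UMIs per library were 32672631 to 108227184. With 1 library per age there is no test, and genes are named because they are the 10 members, or belong to the 4 lists, or were the 3 most similar genes of a member. The calculation of age ratios was tested on simulated data. Gene positions are from GENCODE M21 (GRCm38).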

Additional observations from a re-analysis of the deposited data

Results flagged for a closer look

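For 5 members the 16 month library stood on opposite sides of all younger libraries in different classes, and in each case the difference between classes was not tested. The values are log2 ratios of (CPM + 1) at 16 months over the mean of the other 3 libraries. Comp was higher in CH-like (1.38) and LMP-like cells (2.29) and lower in AD-like (-2.31), EMP-like (-1.90), OB-like (-2.23) and hypertrophic CH-like cells (-1.19). Thbs1 was higher in AD-like (1.86), EMP-like (1.64) and LMP-like cells (2.25) and lower in CH-like (-1.52) and hypertrophic CH-like cells (-1.38). Thbs4 was higher in LMP-like (3.86), CH-like (1.19) and hypertrophic CH-like cells (1.32) and lower in EMP-like cells (-2.43). Sparcl1 was higher in EMP-like (1.83) and LMP-like cells (2.94) and lower in CH-like cells (-2.31). The CH-like value at 16 months rests on 7 UMIs, seen in 1.82% of 55 cells. Its interval (2.83 to 14.5 CPM) holds the 10.6 CPM of 1.5 months, and the call was lost on thinning. Thbs2 was higher in EMP-like cells (1.38) and lower in CH-like (-2.01) and OB-like cells (-0.98). The LMP-like values of Comp and Thbs4 rest on classes that differ in whether tendon-like cells stand apart, and pooling both classes gave ratios of 0.82 and 0.24.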

How the results depend on the processing

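Among the counts recomputed under an alternative, 193 stayed within 1.5 times the main count and 22 did not. Single values moved more often. Of the recomputed CPM values, 371 were counted as the same and 184 as moved. For log2 ratios it was 226 and 144. For those of called pairs, counted apart, it was 563 and 207, with 3 reversed. The count of members with a leading class at 1.5 months was 2 at 3-fold. The same highest class in all libraries was found for 7 members at resolution 0.5 and for 7 with each library clustered alone. Subtracting neutrophil-like CPM, which at 1.5 months come from cells with mesenchymal RNA, left 0 members called in AD-like, 4 in CH-like, 4 in hypertrophic CH-like, 6 in EMP-like and 0 in OB-like cells. Thinning to 3000 UMIs left 3 in CH-like, 5 in hypertrophic CH-like and 3 in OB-like cells, and 3-fold left 3, 4 and 3. With 1.5-fold, 5 were called in AD-like and 7 in LMP-like cells, and 7 in LMP-like cells at resolution 0.5. In both settings the LMP-like calls gained were Postn, Sparc and Tnn, whose main ratios were -0.86, -0.80 and -0.69, so not all LMP-like calls at 1.5-fold were higher. In OB-like cells 3 were called with up to 10% mitochondrial UMIs, 3 without the highest Scrublet scores, 2 at a minimum of 50 CPM and 2 without the 1.5 month library. Pooling LMP-like and tendon-like cells left 2 of the LMP-like calls. Of the ratios of called pairs, 3 changed sign: Thbs4 in CH-like cells without the highest Scrublet scores (-0.21), Tnc in hypertrophic CH-like cells less erythroid-like CPM (-2.88) and Comp in OB-like cells less neutrophil-like CPM (0.013). Ratios of pairs not called could change sign too, such as Thbs2 in LMP-like cells, at -0.074 and, with tendon-like cells pooled, 0.14. Relative to the median ratio of all genes, which was 0.28 in hypertrophic CH-like and 0.17 in EMP-like cells, 1 call was lost and 1 gained. The clustering of the 1 and 1.5 month libraries depends on the order in which genes are sorted. Sorting them by byte lost 0 of 37 calls and gained 0. This alternative, the subtraction of erythroid-like CPM, the pooling, the removal of AD-like subclusters and the removal of libraries were chosen after seeing the data. The cause of these changes was not tested. Resolution 0.5 and the separate clustering gave no value for hypertrophic CH-like cells, and resolution 0.5 none for EMP-like cells, and fold and minimum do not enter the same highest class. No paired analysis was possible because there is 1 library per age.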
